A study of Mus musculus with 4 samples.

Results

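Distal trunk regions shared by both fractions are stretches of mouse genome with an H3K27ac peak in both sorted cell populations of the E14.5 trunk. They carried none in either population of the limbs, and lay away from promoters of protein-coding genes. H3K27ac is the acetylation of lysine 27 of histone H3, measured by chromatin immunoprecipitation and sequencing (ChIP-seq). The peak intervals of the 4 deposited lists were merged wherever they overlapped, giving 62558 regions on chromosomes 1 to 19, X and Y. Of these, 42651 were distal, that is, outside windows from 2 kb upstream to 500 bp downstream of protein-coding start sites. The rule left 430 trunk-only shared regions, 0.687% of all regions and 1.01% of the distal ones.

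The series holds 4 libraries, 1 for each population: limb GFP+, limb GFP-, trunk GFP+ and trunk GFP-. All came from fetuses of genotype Col2a1-EGFP on the G4 background at E14.5, made by tetraploid aggregation from male G4 embryonic stem cells, so every population shares the homozygous reporter allele. The reporter is a sensor cassette with a minimal promoter placed upstream of Col2a1, and GFP+ cells are those in which the regulatory surroundings of Col2a1 drove it. Several fetuses were pooled over rounds of sorting, the trunk had been freed of its internal organs, and the limb libraries were sequenced in another lane than the trunk libraries, so that a lane difference and a tissue difference cannot be told apart.

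Acetylation of H3K27 marks active promoters and active enhancers, and distal sites with the mark are often used as candidate enhancers. Cells keep a record of their place along the body in the Hox genes, homeodomain factors that lie in 4 clusters and are switched on in an order that follows their order on the chromosome. MEIS and PBX proteins bind DNA together with Hox proteins, and chondrocytes, the cells that Col2a1 marks, are built under the control of SOX9 in both limb and trunk.

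The sequences of 10 regions are printed here, since the results below turn on where regions lie and on which short motifs they hold. They are 4 regions whose nearest gene was a Hox gene or Meis1, named for their width or their ratio between fractions, and 6 others named for strength, width or ratio in which 1 of 4 motifs was present. The sequences were read from GRCm39 on the plus strand, up to 300 bases round the stronger summit and clipped to the region. Capitals mark TGACAG (the MEIS motif), TGATTGA (PBX), TTTATGG (posterior HOX) and CAGCTG (an E-box bound by basic helix-loop-helix factors), on either strand. A match is a description of the letters and no evidence of binding.

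Hoxb9 region, chr11:96141933-96142232: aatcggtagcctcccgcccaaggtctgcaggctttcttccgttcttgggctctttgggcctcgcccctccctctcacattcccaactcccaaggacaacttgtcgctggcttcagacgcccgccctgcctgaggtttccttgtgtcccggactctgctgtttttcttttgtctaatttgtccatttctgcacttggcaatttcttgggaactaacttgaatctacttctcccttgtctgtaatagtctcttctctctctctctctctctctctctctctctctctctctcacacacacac
Hoxb2 region, chr11:96245120-96245419: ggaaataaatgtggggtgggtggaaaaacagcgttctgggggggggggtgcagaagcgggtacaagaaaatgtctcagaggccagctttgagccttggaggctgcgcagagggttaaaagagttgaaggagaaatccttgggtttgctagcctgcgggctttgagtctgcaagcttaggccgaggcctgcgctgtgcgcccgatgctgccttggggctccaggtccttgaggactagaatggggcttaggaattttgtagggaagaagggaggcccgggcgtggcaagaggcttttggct
Hoxc4 region, chr15:102967956-102968255: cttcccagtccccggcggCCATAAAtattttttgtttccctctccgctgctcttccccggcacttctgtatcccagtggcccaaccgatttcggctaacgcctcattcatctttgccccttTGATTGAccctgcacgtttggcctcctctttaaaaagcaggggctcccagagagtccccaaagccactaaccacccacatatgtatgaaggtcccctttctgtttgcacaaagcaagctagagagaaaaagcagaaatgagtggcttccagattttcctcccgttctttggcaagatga
Sertad2 region, chr11:20606051-20606350: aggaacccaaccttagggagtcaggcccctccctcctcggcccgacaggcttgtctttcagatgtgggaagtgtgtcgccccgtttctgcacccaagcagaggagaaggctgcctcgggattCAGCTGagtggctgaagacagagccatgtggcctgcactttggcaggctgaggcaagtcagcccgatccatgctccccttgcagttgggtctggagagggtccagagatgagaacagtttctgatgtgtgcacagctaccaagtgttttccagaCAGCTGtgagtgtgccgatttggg
Chd7 region, chr4:8912717-8913007: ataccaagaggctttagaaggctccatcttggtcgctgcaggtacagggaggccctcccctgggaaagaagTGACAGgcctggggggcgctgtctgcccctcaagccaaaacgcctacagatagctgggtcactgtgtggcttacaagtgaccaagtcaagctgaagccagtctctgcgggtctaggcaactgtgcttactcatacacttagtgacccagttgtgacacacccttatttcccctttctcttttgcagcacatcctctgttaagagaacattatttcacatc
Meis1 region, chr11:18827151-18827444: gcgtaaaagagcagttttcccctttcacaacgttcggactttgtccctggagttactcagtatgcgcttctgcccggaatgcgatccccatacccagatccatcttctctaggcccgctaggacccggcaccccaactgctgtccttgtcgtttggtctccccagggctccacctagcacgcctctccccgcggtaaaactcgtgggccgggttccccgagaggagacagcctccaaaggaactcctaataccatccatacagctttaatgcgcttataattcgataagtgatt
Comtd1 region, chr14:21954129-21954425: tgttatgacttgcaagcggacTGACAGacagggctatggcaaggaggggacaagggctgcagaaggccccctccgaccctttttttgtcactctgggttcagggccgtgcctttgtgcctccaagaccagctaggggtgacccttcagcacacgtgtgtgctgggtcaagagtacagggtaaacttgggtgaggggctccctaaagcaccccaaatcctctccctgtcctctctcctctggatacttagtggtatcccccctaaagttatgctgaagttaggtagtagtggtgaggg
Tspan18 region, chr2:93108885-93109176: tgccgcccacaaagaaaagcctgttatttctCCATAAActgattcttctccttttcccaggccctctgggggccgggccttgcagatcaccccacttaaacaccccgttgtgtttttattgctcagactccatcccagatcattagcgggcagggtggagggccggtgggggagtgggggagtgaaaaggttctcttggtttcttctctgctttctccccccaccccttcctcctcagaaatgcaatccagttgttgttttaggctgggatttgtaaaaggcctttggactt
Trim9 region, chr12:70414357-70414656: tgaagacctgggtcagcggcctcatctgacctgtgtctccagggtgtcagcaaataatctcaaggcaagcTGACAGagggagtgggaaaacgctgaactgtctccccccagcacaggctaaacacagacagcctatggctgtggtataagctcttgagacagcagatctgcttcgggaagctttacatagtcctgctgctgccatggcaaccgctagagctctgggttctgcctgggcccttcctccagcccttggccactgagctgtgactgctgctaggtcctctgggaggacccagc
Spag6 region, chr2:18698769-18699055: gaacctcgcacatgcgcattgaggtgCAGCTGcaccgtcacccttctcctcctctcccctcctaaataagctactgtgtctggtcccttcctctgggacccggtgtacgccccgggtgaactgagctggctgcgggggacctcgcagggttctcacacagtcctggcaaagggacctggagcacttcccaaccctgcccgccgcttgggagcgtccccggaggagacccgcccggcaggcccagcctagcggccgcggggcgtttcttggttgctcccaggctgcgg

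Of the 10 windows, 7 held at least 1 of the 4 motifs. Windows outside the Hox and Meis1 regions were printed only where a motif was present, so this is no rate. Of the 25 named candidates, 3 in repeated sequence and 1 over an untranslated region were not searched. Among the others, 14 windows held none. The windows at Chd7, Comtd1 and Trim9 held TGACAG once each, the window at Sertad2 held CAGCTG at 2 places, and the window near Hoxc4 held TGATTGA and the reverse complement of TTTATGG once each. The windows at Hoxb9, Hoxb2 and Meis1 held none of the 4.

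The presence or absence of peaks in the 4 lists chose the regions, so the counts that follow are a description. Among the 5408 distal regions with peaks in both trunk fractions, 430 had no limb peak, which is 7.95% (exact 95% interval 7.24% to 8.70%). The mirror class, limb-only regions of both fractions, held 941 regions, 14.45% of the 6512 distal regions with peaks in both limb fractions. The 2 counts moved with the threshold, to 182 trunk-only and 206 limb-only regions with the 20000 strongest intervals of each list and to 123 and 639 with a fold of at least 4. The pairs that join one fraction of limb and trunk were larger, with 4623 regions in both GFP+ lists alone (45.1% of 10240) and 1969 in both GFP- lists alone (28.5% of 6901). The pairs that differ in both tissue and fraction held 351 regions for limb GFP+ with trunk GFP- (6.51% of 5392) and 419 for limb GFP- with trunk GFP+ (7.07% of 5927). The share for the trunk pair lay above the 6.51% (5.87% to 7.20%), and its interval overlapped that of the 7.07% (6.43% to 7.75%), the shares for populations with neither tissue nor fraction in common. All 4 lists held 3785 distal regions.

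**Figure D1:**
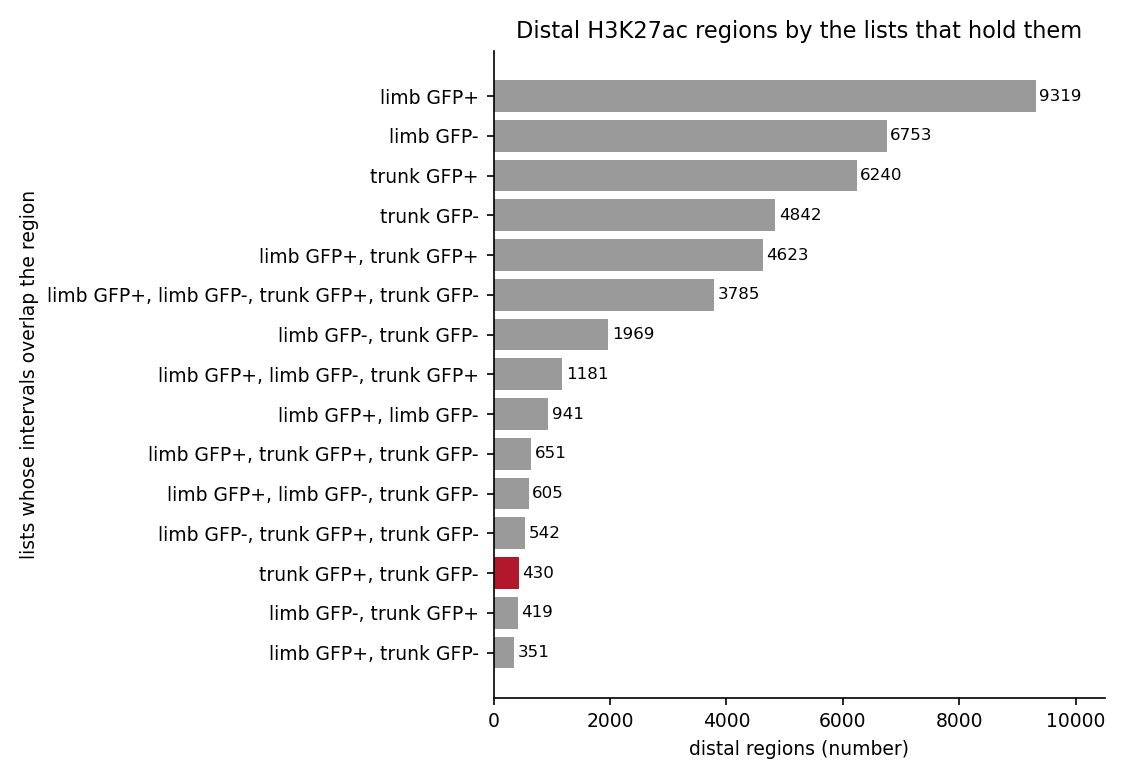
Number of distal regions (horizontal axis) for each of the 15 combinations of lists whose peaks overlap them (vertical axis). The trunk-only shared regions, 430, are drawn in red and lie between the 351 and 419 regions of the mixed pairs and the 941 of the limb pair.

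The trunk-only shared regions were weak peaks. Reads at a peak summit, each extended to 200 bp, were recovered from the fold and the -log10 p in the lists. In trunk GFP+ cells the 430 regions had 7 reads at the lowest, 12 at the lower and 19 at the upper quartile, and 58 at the highest. In trunk GFP- cells they had 8 reads at the lowest, 13 and 20 at the quartiles, and 60 at the highest. Over all summits the median was 28 reads in each trunk list. The background of the library was 1.60 reads in trunk GFP+ cells and 1.83 in trunk GFP- cells, so the median enrichment of the regions was 9.04-fold and 8.73-fold.

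Their median -log10 q, the p-value corrected within a library, was 3.59 in trunk GFP+ and 3.54 in trunk GFP- cells, and ranked by -log10 p the median region stood at percentile 24.2 and 23.1 of the list. Above the median of the list lay 46 of the regions in trunk GFP+ and 33 in trunk GFP- cells. For the weaker of the 2 fractions the median -log10 p was 5.14, against 5.65 in the limb-only shared regions, 5.33 in the mixed pairs and 7.94 in regions of all 4 lists. The limit of 5 for the -log10 q was reached in both fractions by 30 regions, and the limit of 10 by 2 regions.

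The regions just inside the thresholds were those nearest Clic5, Efl1 and Grik4, with -log10 p values of 3.37, 3.41 and 3.41 in trunk GFP+ cells. The smallest gap to a limb peak was 2 bp, and the smallest to a promoter window 51 bp. Just outside, 6 distal regions of both trunk lists met a limb peak over at most 50 bp. A limb peak lay within 500 bp of 120 of the 430 regions (27.9%) and within 10 kb of 254 (59.1%), with a median gap of 6600 bp. The 2 trunk intervals themselves overlapped by a median of 89.0% of the shorter interval, and by at least 50% in 355 regions. The absence of a limb peak is the absence of a called peak, and a weaker limb signal at these places was not tested.

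The rule asked for a called peak in both trunk fractions and kept regions near the lowest callable levels, which bounds their ratio, so the values that follow are a description. The ratio of enrichment in GFP+ to GFP- cells had a median of 1.13 and ran from 0.331 to 3.24. A ratio of at least 1.5 was found in 66 regions (15.3%), where 25.8% of all distal regions of both trunk lists reached it. A ratio of at least 1.5 the other way was found in 29 regions (6.74%), against a background of 6.99%. Either way together this was 22.1% of the regions, and 8.37% where the deposited local fold was used. The exact interval of the ratio, which covers counting error only, included 1 in 412 of the 430 regions, lay above 1 in 14 and lay below 1 in 4. At these depths most of the ratios could not be told from 1. Among 430 intervals some exclude 1 by counting error alone, so the 14 and the 4 are not called differences. The same count over all distal regions of both trunk lists is not given here. In populations of many cells, fewer cells with the mark and a lower level per cell cannot be told apart. Across the 430 regions the log2 enrichments of the fractions had a Pearson r of 0.57 and a Spearman rho of 0.50, points that share the 2 libraries and were selected by them.

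**Figure D2:**
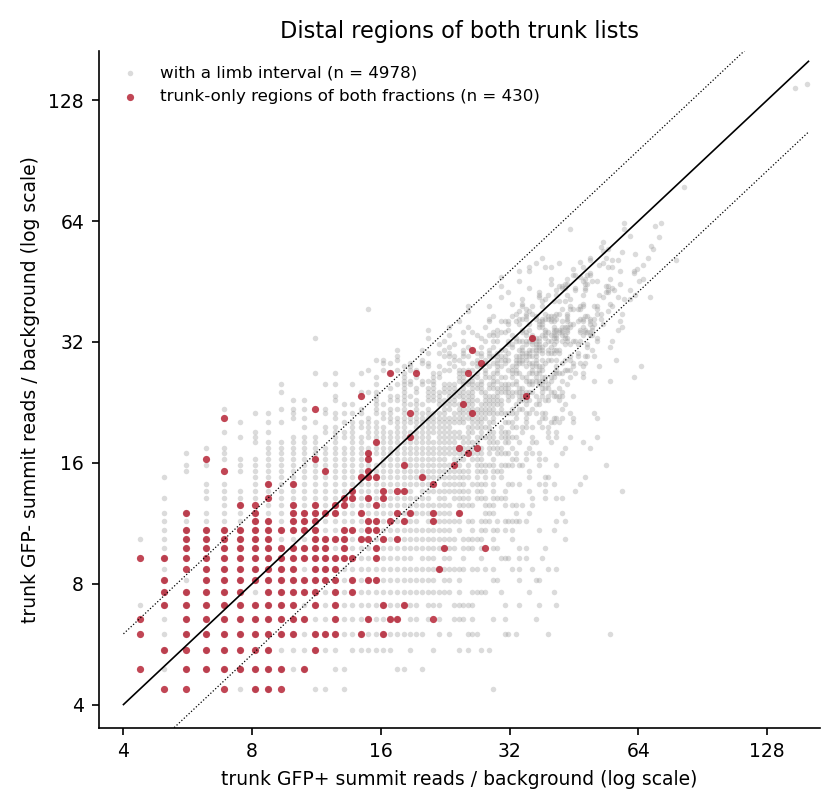
Summit reads over library background in trunk GFP+ cells (horizontal axis, log scale) and trunk GFP- cells (vertical axis, log scale) for distal regions of both trunk lists. Red points are the 430 trunk-only shared regions and grey points the 4978 regions with a limb peak; points may hold several regions, the full line is a ratio of 1 and the dotted lines are 1.5-fold either way.

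Of the 10 regions with the highest -log10 p in their weaker fraction, the first lay between genes, 55.2 kb from the start of Comtd1, at chr14:21954129-21954427. It had 39 reads in trunk GFP+ and 32 in trunk GFP- cells, with -log10 p values of 21.2 and 19.5, and the nearest limb peak lay 260 bp away. The next 3, nearest Sfi1, Alkbh8 and Cntnap5b, lay in sequence that the genome holds more than once. The share of 31-base words present more than once in GRCm39 was 67.9%, 78.8% and 100% in their summit windows, and whether their reads came from other copies was not tested. Such windows, with at least 50% repeated words, made up 5 of the 430 regions (1.16%), against 2.44% of the limb-only shared regions and 0.740% of the regions in all 4 lists.

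The other 6 were nearest Pknox2, Tspan18, Cep78, Trim9, Spag6 and Ccr1. Pknox2 encodes a homeodomain protein of the same TALE class as MEIS and PBX. The region in its intron, chr9:37012540-37013283, had 23 reads in trunk GFP+ and 27 in trunk GFP- cells, 133 bp from a limb peak. The region in an intron of Tspan18, which encodes a tetraspanin, had 38 reads in trunk GFP+ and 29 in trunk GFP- cells. The other 4 had 14 to 25 reads in trunk GFP+ and 16 to 27 in trunk GFP- cells, and the region nearest Ccr1, a chemokine receptor gene, lay 31.7 kb from its start.

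Both trunk fractions had at least 20 reads in 60 regions. Among these, the 3 highest ratios of GFP+ to GFP- were near Atp10a, Chd7 and Afap1. The region 185 kb from Atp10a, which encodes a phospholipid flippase, had 39 and 22 reads and a ratio of 2.03 (interval 1.17 to 3.59). Its deposited local fold went the other way, 2.80 in GFP+ and 3.48 in GFP- cells. The region near Chd7, a chromatin remodeller gene, had 34 and 21 reads and a ratio of 1.85 (1.04 to 3.36). The region in an intron of Afap1, whose product binds actin filaments, had 34 and 22 reads and a ratio of 1.77 (1.00 to 3.17). Near Chd7 and Afap1 the local fold was also higher in GFP+ cells. In these 3, picked as the highest of the 60, the interval lay above 1, and the nearest limb peak was 204, 1452 and 32 bp away.

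The 3 lowest ratios of well covered regions were near Meis1, Hoxc9 and Hoxb2. The Meis1 region, chr11:18827105-18827444, lay in an intron of the noncoding gene 8430419K02Rik, 142 kb from the nearest Meis1 start. It had 23 reads in trunk GFP+ and 43 in trunk GFP- cells, a ratio of 0.611 (interval 0.352 to 1.04). A second region lay within the same stretch of 7.13 kb, with 16 and 20 reads. The Hoxc9 region had 27 and 49 reads and a ratio of 0.630 (0.379 to 1.03), and the Hoxb2 region 31 and 49 reads and a ratio of 0.723 (0.446 to 1.16). All 3 had more reads in GFP- cells, and all 3 intervals included 1.

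The regions had a median width of 410 bp, from 211 to 1318 bp. The widest 3 were near Hoxb9 (1318 bp), Sertad2 (1225 bp) and Hoxc4 (1036 bp), of which the first lay inside its Hox cluster and the last beyond the end of its cluster. The Sertad2 region, 9.01 kb from the start of this transcriptional regulator gene, had 24 reads in trunk GFP+ and 19 in trunk GFP- cells, with the nearest limb peak 14979 bp away.

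A larger share of the 430 regions than of all distal regions lay near Hox genes. A start site of 1 of the 39 Hox genes lay within 100 kb of 10 of the 430 regions, 2.33% (exact interval 1.12% to 4.24%). The same was true of 0.169% of all distal regions (72 of 42651), of 2 of the 941 limb-only shared regions (0.213%), of 1 region in all 4 lists and of none of the 770 regions of the mixed pairs. Of the 72 distal regions near Hox genes, 40 had peaks in trunk lists alone and 16 in limb lists alone. The count depended on the threshold. It was 1 of 135 regions when all lists were held to the limit of 5 for the -log10 q. It was 0 of 182 when each list was kept to its 20000 strongest intervals. The lists were cut before the regions were rebuilt, so the 135 and the 182 are not all among the 430. The 10 regions had 18 to 44 reads in trunk GFP+ and 16 to 52 in trunk GFP- cells. The upper quartiles of all 430 were 19 and 20 reads. The deposited local fold of the 10 ran from 2.22 to 3.62 in trunk GFP+ and from 1.97 to 3.76 in trunk GFP- cells. The median fold of all 430 was 3.63 and 3.48. In their weaker fraction the 10 had -log10 p values of 3.82 to 7.32, where the 135 and the 182 had medians of 8.41 and 8.97. Why the count fell was not tested. Regions of 1 cluster are neighbours, and the interval treats them as separate draws. No other list of genes had more than 3 regions.

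Hoxb genes held 5 of the 10. The first lay 9.58 kb from the start of Hoxb13, the most posterior gene of the cluster, with 18 reads in trunk GFP+ and 16 in trunk GFP- cells. A pair lay in the long interval between Hoxb13 and Hoxb9, over the noncoding gene Gm53 and 18.7 kb and 20.1 kb from Hoxb9. The wider of them, at chr11:96141693-96143010, had 25 and 20 reads, and the narrower 24 and 24, with the nearest limb peak over 33 kb away. The region in an intron of Hoxb4 had 18 and 30 reads. The region beside Hoxb2, over the antisense gene Hoxb3os, had 31 and 49 reads and lay 95 bp from a limb peak. The regions nearer Hoxb13 and Hoxb9 had at least as many reads in GFP+ cells, and those nearer Hoxb4 and Hoxb2 had more in GFP- cells. The ratio interval of each of the 5 included 1. The local fold at Hoxb4 was higher in GFP+ cells, 2.54 against 1.97, and at Hoxb2 lower, 2.34 against 2.83.

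Across the whole Hoxb cluster, 174 kb long, limb peaks were few. The limb GFP+ list had 0 intervals in it, the limb GFP- list 5, the trunk GFP+ list 17 and the trunk GFP- list 19. Hoxb2, Hoxb3 and Hoxb6 had promoter peaks in both trunk lists and no limb list.

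The Hoxc genes held 4 regions. They lay 6.39 kb from Hoxc12, in a coding exon of Hoxc9, in an intron shared by the Hoxc5 and Hoxc6 transcripts near Hoxc8, and 25.3 kb from Hoxc4 beyond the end of the cluster. The Hoxc12 region had 24 reads in trunk GFP+ and 31 in trunk GFP- cells. The Hoxc8 region was the best covered of the Hox regions, with 44 and 52 reads. The Hoxc4 region had 18 and 40 reads, a ratio of 0.514 (0.278 to 0.918), and was the only 1 of the 10 Hox regions whose interval excluded 1. All 4 had more reads in GFP- than in GFP+ cells, although after division by background the Hoxc12 ratio was 0.885 and the Hoxc8 ratio 0.967.

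In the Hoxc cluster the limb GFP+ list had 6 intervals, the limb GFP- list 4, the trunk GFP+ list 13 and the trunk GFP- list 15. Promoters of Hoxc4, Hoxc6, Hoxc8 and Hoxc13 had peaks in both trunk lists and no limb list. Among the 39 Hox genes, 7 promoters followed this pattern, all in Hoxb or Hoxc.

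The Hoxa cluster had peaks in each list, 13 and 10 intervals in the limb GFP+ and GFP- lists and 11 and 14 in the trunk GFP+ and GFP- lists. The Hoxd cluster held none of the 430 regions, and had 6 and 1 limb and 3 and 8 trunk intervals in the same order. Over the 10 Hox regions the ratio ran from 0.514 to 1.43, below 1 in 6 of them.

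**Figure D3:**
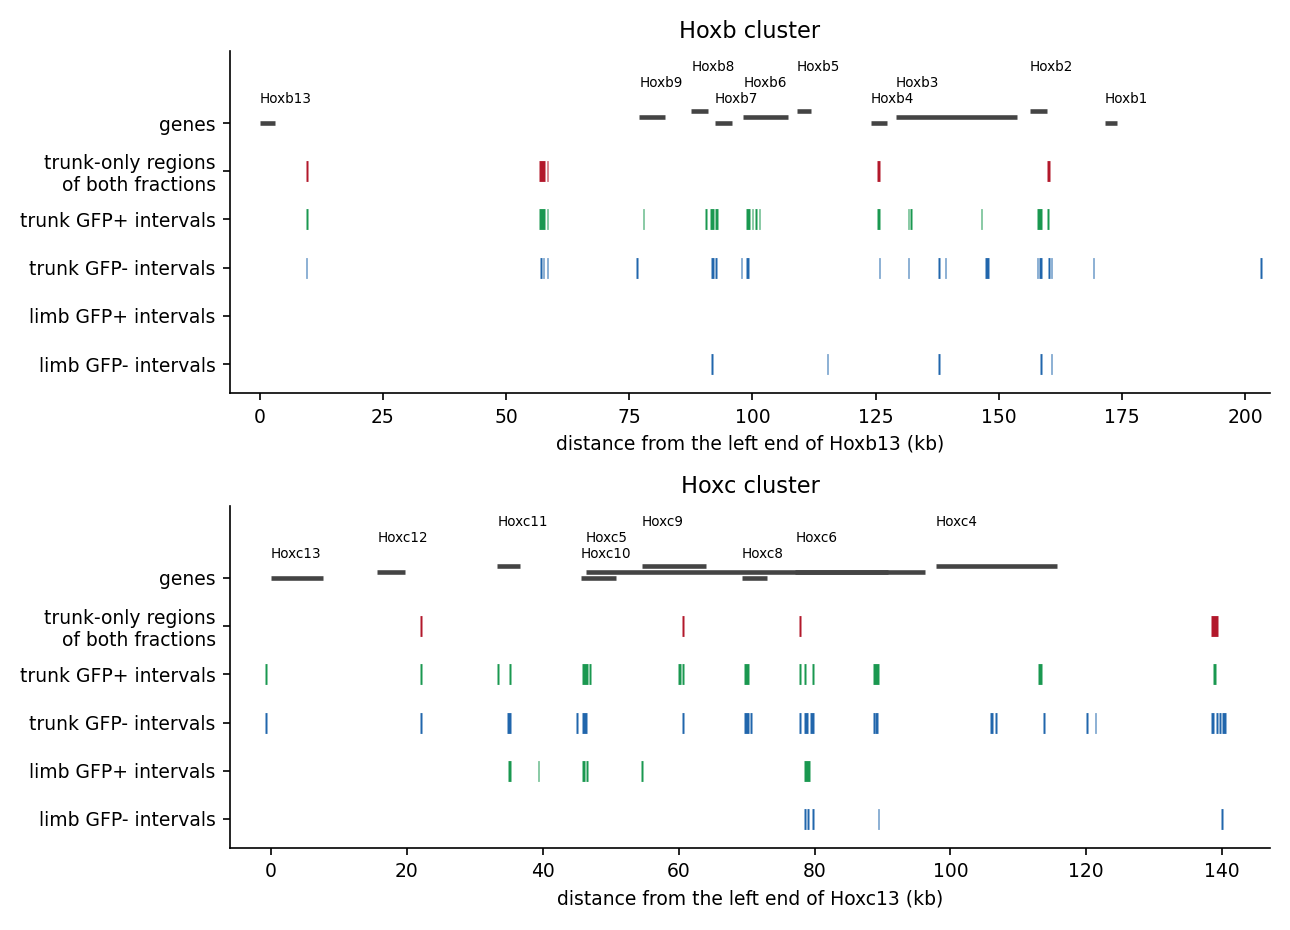
The Hoxb (top) and Hoxc (bottom) clusters, with distance in kb from the left end of Hoxb13 or Hoxc13 on the horizontal axis and, from top to bottom, genes, trunk-only shared regions (red) and the peak intervals of the 4 lists. The 5 Hoxb and 4 Hoxc regions lie where both trunk lists have intervals, and the limb GFP+ list has no interval in the Hoxb cluster.

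Since Hox genes lie close together, they also led the count by gene. Hoxb5, Hoxb6, Hoxb7, Hoxb8 and Hoxb9 each had 5 of the regions within 100 kb, and Hoxb2, Hoxb3, Hoxb4, Hoxc4, Hoxc5, Hoxc6, Hoxc8, Hoxc9 and Hoxc10 each had 4. These counts overlap, as 1 region counts for several genes. Outside the Hox clusters, Gse1, whose product is a coiled-coil protein, had 4, and Maml3, a coactivator of Notch signalling, had 3. The 3 regions nearest Gse1 spread over 131 kb, with 19 and 18, 14 and 19, and 9 and 17 reads in trunk GFP+ and GFP- cells. They were not strong, and Gse1 had 44 distal regions within 100 kb in all. No region lay within 100 kb of 20517 of the 21581 protein-coding genes with a start site, and 1023 genes had 1.

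Most of the regions stood alone. No other lay within 100 kb of 387 of the 430, 28 formed 14 pairs, and 4 groups had 3 or more: the Hoxb and Hoxc groups, a group of 3 nearest Cstad and 1700001O22Rik on chromosome 2, and the Gse1 group.

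The other lists of genes had few regions. Of the list of 18 axial and sclerotome factors, only Zic1 and Zic4, neighbouring zinc finger genes, had 1, the same region, with 14 reads in trunk GFP+ and 15 in trunk GFP- cells and no limb peak within 160 kb. The limb patterning list had 2 of the 430 (0.465%), 98.9 kb from Tbx4, a T-box factor of the hindlimb, with 9 and 22 reads, and 54.7 kb from Irx3, an Iroquois homeodomain factor, with 8 and 15, beside 0.431% of all distal regions. In the limb-only shared regions that list had 11 of 941 (1.17%, interval 0.585% to 2.08%), and the 2 intervals overlap. The connective tissue list had 2, near the collagen gene Col1a1 (20 and 19 reads) and in an intron of Pdgfrb, a growth factor receptor gene (25 and 33 reads), with limb peaks 45 bp and 162 bp away, a share of 0.465% beside 0.434% of all distal regions. The list of ventral and body wall mesoderm factors had 1, near Nkx2-3, and the endothelial and blood list 1, in an intron of Runx1. Each of these 2 lists, like the axial list, thus had 0.233% of the regions, beside 0.195%, 0.244% and 0.216% of all distal regions for the ventral, the endothelial and the axial list.

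None of the 430 regions lay within 100 kb of a gene of the chondrocyte list (0 of 430, exact upper bound 0.854%), beside 0.764% of all distal regions, which lies within that bound, and 2.18% of the regions of both GFP+ lists (101 of 4623). The skeletal muscle, neural and epidermis lists also had 0, beside 0.340%, 0.197% and 0.124% of all distal regions, so a count of 0 is not below the background at this number of regions. The study's own trunk-specific list, chosen from the same tissues, holds chondrogenic genes higher in trunk than in limb GFP+ cells, not genes of both fractions. Of its 58 genes 40 were found and searched, and 3 had a region: Agt, Mgst2 and Nkx6-1. That was 3 of 430 regions (0.698%), beside 0.544% of all distal regions. The limb-specific list, with 47 of 67 genes searched, had 1 (0.233%), near Crocc2, beside 0.673%.

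**Figure D4:**
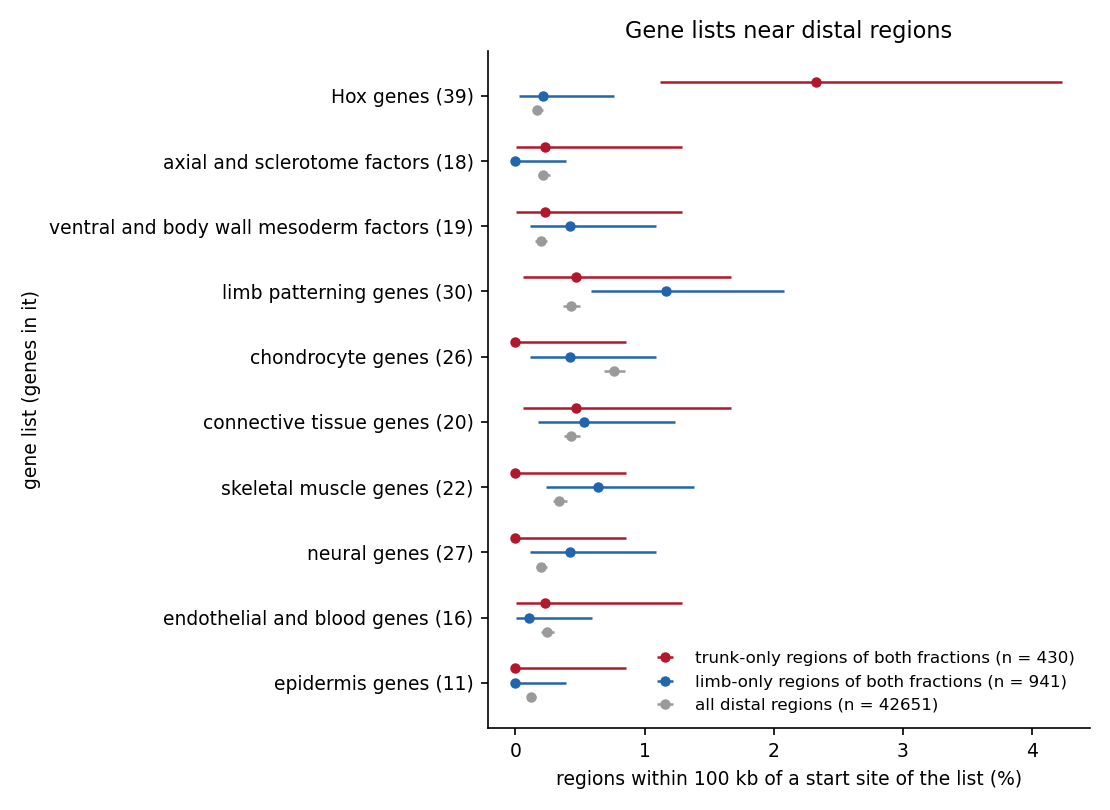
Percent of regions within 100 kb of a start site of each gene list (horizontal axis), for the 430 trunk-only shared regions (red), the 941 limb-only shared regions (blue) and all 42651 distal regions (grey), with exact 95% intervals that cover counting error only. Among the 10 lists the Hox genes alone have an interval of the trunk-only shared regions that lies above that of all distal regions.

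Of all distal regions, 60.7% lay in introns and 25.7% between genes. Introns held 62.3% of the 430, exons outside coding sequence 14.0%, coding exons 1.86% and intergenic sequence 21.9%, and the median distance to a start site was 28.5 kb, against 34539 bp for all distal regions. Within 10 kb of a start site lay 25.3% (21.3% to 29.7%), against 20.4%, and over 100 kb away 17.7% (14.2% to 21.6%), against 23.3%. The mixed pairs were alike, with 26.2%, 18.1% and a median distance of 27939.5 bp. The limb-only shared regions had 21.9%, 23.0% and 36372 bp. Start windows of long noncoding RNA genes overlapped 20.7% (interval 17.0% to 24.8%), against 15.5% of all distal regions and 40.3% of those in all 4 lists. The nearest gene had a limb promoter peak for 77.0% of the regions (72.7% to 80.9%), as for 77.5% of all distal regions. Its promoter had peaks in both trunk lists and no limb list for 6 regions (1.40%, interval 0.514% to 3.01%), against 0.546% of all distal regions.

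The base composition and the motifs were not used by the rule. The median GC content of the 501-bp summit windows was 50.9%, higher than the 47.9% of the limb-only shared regions and the 48.1% of all distal regions, and lower than the 53.3% of regions in all 4 lists. Of 21 short motifs searched on both strands, the largest excesses over all distal regions were those of CAGCTG and TGACAG, named here after all 21 had been seen. TGACAG was present in 175 windows, 40.7% (36.0% to 45.5%), against 28.5% (25.6% to 31.5%) of the limb-only shared regions, 32.4% of all distal regions and 27.5% of regions in all 4 lists. The mixed pairs had 34.3% and the regions of both GFP- lists 35.8%. With each list kept to its 20000 strongest intervals, TGACAG was in 33.0% of the 182 regions that remained under the rule. CAGCTG was present in 174 windows, 40.5% (35.8% to 45.3%), against 29.9% (26.95% to 32.9%) of the limb-only shared regions and 31.3% of all distal regions, but 40.0% of regions in both GFP- lists.

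CAGCAGG, a motif of ZIC factors, was present in 23.7% (19.8% to 28.03%), against 18.8% and 18.1% in the limb-only shared and all distal regions. The mixed pairs had 19.5% (16.7% to 22.5%) and the regions of both GFP- lists 20.3% (18.6% to 22.2%). ACAAAG, the SOX motif, was present in 33.0% (28.6% to 37.7%), against 37.0% and 38.5%. For this motif the mixed pairs had 32.5% and the regions of both GFP- lists 42.4%. TAATTA, bound by many homeodomain proteins, was in 7.67%, TTTATGG in 7.21% and TGATTGA in 3.02%, and the intervals of these 3 included the 10.2%, 7.25% and 4.36% of all distal regions. Motif shares move with base composition, and the part of GC content in these differences was not tested.

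**Figure D5:**
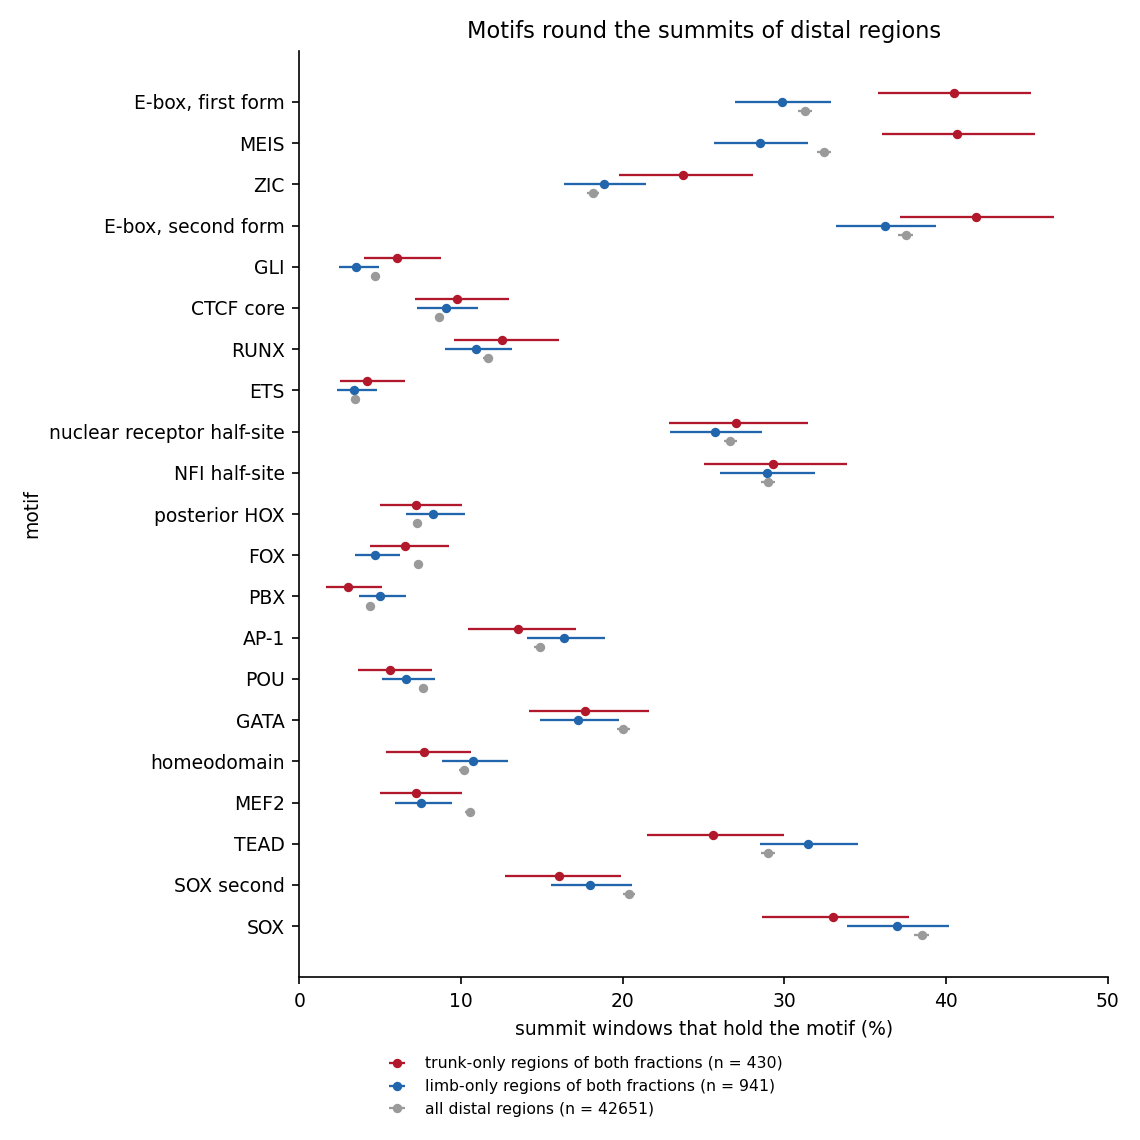
Percent of 501-bp summit windows that hold each of 21 motifs on either strand (horizontal axis), for the 430 trunk-only shared regions (red), the 941 limb-only shared regions (blue) and all 42651 distal regions (grey), with exact 95% intervals. The MEIS motif (40.7% against 28.5% and 32.4%) and the first E-box form, CAGCTG in the text (40.5% against 29.9% and 31.3%), are the motifs whose red interval lies above both others.

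The populations were checked by promoter peaks at marker genes. All 8 chondrocyte markers had a promoter peak in both GFP+ lists, 3 in limb GFP- and 2 in trunk GFP- cells, where Sox9 and Hapln1 remained. All 4 connective tissue markers had one in both GFP- lists, and 2 of them, Col1a1 and Col3a1, in both GFP+ lists. Of 5 limb markers, 4 had one in limb GFP+ and 3 in limb GFP- cells, and Tbx4 also in trunk GFP+ cells. Of 5 muscle, 4 neural, 4 blood and endothelial and 3 epidermal markers, the trunk lists had a peak at Tubb3 alone, in trunk GFP- cells. For the same markers the limb lists had peaks at Myog and Sox10 alone, both in limb GFP+ and not in limb GFP- cells. Of the 3 trunk markers, Alx1, Pax1 and Foxf1 all had a peak in trunk GFP+ and none in trunk GFP- cells, so none of the 3 had promoter peaks in both trunk fractions.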

How the data were processed

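H3K27ac ChIP-seq was analysed from 4 deposited peak lists, 1 per sorted population. The authors sampled reads to an equal number per library, trimmed them with cutadapt 1.18, mapped them to GRCm39 with Bowtie2 2.3.5.1, filtered with SAMtools and called peaks per library with MACS2 2.2.7.1, with reads extended to 200 bp. The study made 1 library per population, so there were no replicates to pool. The MACS2 options printed in the paper name neither a control nor a peak threshold. In the deposited lists, the score is the authors' MACS2 score and was not used further, the fold is a ratio of summit reads to local background, and the −log10 p and −log10 q are MACS2's. The peak names of the trunk GFP- list carry another replicate number than its label, and the label was used.

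Summits of a single interval, which repeat its bounds, were joined. Reads and background were recovered from fold and −log10 p for 100% of summits, matching the deposited −log10 p within 0.001. Every summit had at least 7 reads. Background was the lowest local value of a library. Genes and promoters came from GENCODE vM39 (67388 start sites). The recovery and the region rule were tested on simulated data. With 1 library per population, no test was made between conditions, and intervals are exact binomial (Clopper-Pearson) at 95%, covering counting error only. Sequence was read with pysam 0.24.0 and samtools 1.23.1, and statistics were computed with scipy 1.17.1 and pandas 2.3.3 in Python 3.11.15.

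The regions, gene lists, motifs and named groups were chosen with earlier results of these data known. Named were the 10 regions with the highest −log10 p in the weaker fraction, the 3 highest and 3 lowest ratios among those with at least 20 reads in both fractions, the widest 3, the 10 genes with most regions, and up to 4 genes per list. Beside the motifs spelled out in the report, those searched were AACAAT (second SOX form), GTAAACA (FOX), TATTTAT (MEF2), CAGATG (second E-box form), TGANTCA (AP-1), GGAATG (TEAD), TGTGGTT (RUNX), AGATAA (the motif of GATA factors), CCGGAAG (ETS), TTGGCA (NFI), AGGGGGC (CTCF), AGGTCA (nuclear receptors), GACCACC (GLI) and ATTTGCA (POU), and a base could count for several motifs. Sequences and the check for repeated sequence were chosen after values were seen. Of 25 named candidates, 3 in repeated sequence and 1 over an annotated untranslated region were not considered for printing. Of the others, 14 held none of the 4 marked motifs, and only 3 of these were printed. The values of 1 of the 10 regions near Hox genes are not reported here.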

Additional observations from a re-analysis of the deposited data

Results flagged for a closer look

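Peaks on unplaced scaffolds and the mitochondrial genome were outside every comparison of the report. On them the 4 lists gave 64 regions, and 6 of these had peaks in both trunk lists and none in a limb list, above the 3 set as the limit for a flag. On the chromosomes, without the promoter filter, 571 of 62558 regions had this pattern. The regions on scaffolds and the mitochondrial genome were counted only.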

How the results depend on the processing

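Results were recomputed with other thresholds. The limits on q, fold and strongest intervals were applied to the lists before the regions were rebuilt, so the regions counted need not be among the 430. No paired analysis was possible because each population has 1 library and all carry the same replicate number, and no replicate could be left out. Of 65 recomputed values 43 stayed near the main value, within 1.5 times for the number of regions and within the exact interval for the rest. The number of regions, 430, was 135 when every list was held to −log10 q values from 5 upwards, 31 with that limit in the trunk lists alone, 182 with the 20000 strongest intervals per list and 123 with a fold of at least 4. With the q limit in every list, the strongest intervals and the fold limit, in this order, the trunk share of the regions confined to both fractions of 1 tissue, 31.4%, was 23.0%, 46.9% and 16.1%, the median −log10 p of the weaker fraction was 8.41, 8.97 and 8.27, and the share near Hox genes, 2.33%, was 0.741%, 0% and 0%. The −log10 q in place of −log10 p had a median of 2.79. The share of regions with a ratio past 1.5 either way, 22.1%, was 10.4% with the q limit, 17.0% with the strongest intervals, 8.37% with the deposited local fold and 5.58% for a ratio of 2. The share whose nearest gene had a limb promoter peak was 70.9% with the strongest intervals and 65.9% with the fold limit. The share with the SOX motif was 13.7% within 100 bp and 57.7% within 500 bp of the summit, as the window sets the length searched. TGACAG, outside the planned set, was in 33.0% of regions with the strongest intervals and 35.0% with the fold limit, and CAGCTG, likewise outside it, in 35.6% with the q limit. Depth of 7 to 60 reads a summit limits every ratio, and leaving out repeated windows, added after seeing the data, moved no result out of its range.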

Other observations

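Some regions of the trunk lay far from any limb peak. The gap was 376 kb for the region nearest Cobl (12 reads in trunk GFP+ and 20 in trunk GFP- cells), 267 kb for that nearest Pi15 (13 and 9) and 160 kb for that nearest Zic4 (14 and 15). At the other end, 29 regions had a limb peak within 100 bp. These were named after their values were seen.

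A further 141 regions had the same pattern of lists but overlapped a promoter window, and with them the number near Hox genes was 16 of 571, beside 4 of 1275 limb-only shared regions counted in the same way. On chromosome 11, which holds the Hoxb cluster, lay 39 of the 430 regions (9.07%), beside 6.49% of all distal regions. Chromosome X held 10 (2.33%, against 1.64%) and chromosome Y none.

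The regions whose ratio interval excluded 1 on the GFP- side were those nearest Tmprss6 (11 and 38 reads, ratio 0.331), Ermp1 (10 and 30, 0.381), Gnpnat1 (11 and 28, 0.449) and Hoxc4 (18 and 40, 0.514). Tmem174 was the nearest gene of 2 of the 14 on the GFP+ side, with 34 and 12 reads and 26 and 11 reads. Among 430 intervals some exclude 1 by counting error alone, so these regions are not called different between the fractions.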
